A study of Rattus norvegicus with 26 samples.

Results

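The 10 genes described here are strongly expressed in tissue bordering the dentate gyrus (DG) and were followed rat by rat in RNA from the dissected DG. They were chosen by name: 7 are genes of the choroid plexus (Ttr, Folr1, Clic6, Aqp1, Kl, Enpp2 and Sostdc1) and 3 are genes of the meninges and the stroma around vessels (Igf2, Dcn and Lum, Igf2 being made in the choroid plexus as well). All 10 were among the 17910 Ensembl gene IDs of the data, and 7 were among the 15595 tested, whose mean reached 5 normalized counts. The DG came from 1 hemisphere of 26 male F344 rats, whose stated age of 6 months is that at the start of treatment. The Veh group (10 rats) received vehicle by gavage, the Dox group (8 rats) received the anthracycline doxorubicin by injection, and the Dox + ABT group (8 rats) received doxorubicin together with ABT-263, a senolytic that inhibits Bcl-2 family proteins. Whether Dox rats were also gavaged with vehicle, or Veh rats injected, is not given in the sources used here. The study's methods describe the Veh rats as part of a running study of brain aging, all rats as tested for behaviour before tissue was taken, and the DG as cut out by hand on ice. The study set Veh, Dox and Dox + ABT against each other to ask how doxorubicin alters transcription and whether the senolytic limits it, and the genes described here are taken as measures of RNA from neighbouring tissue in each dissection.

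The choroid plexus is a sheet of secretory epithelium over a vascular stroma that hangs in the ventricles and makes cerebrospinal fluid, and its fringe in the lateral ventricle lies against the hippocampus. The meninges cover the brain with layers of fibroblasts that also follow vessels into the hippocampal fissure next to the DG. Transcripts such as Ttr are very abundant in choroid epithelium, so a fragment of it left on a dissected piece can be read in bulk RNA. In bulk RNA, a smaller amount of a tissue and less of a transcript in each of its cells cannot be told apart. Some members also have other sources in brain parenchyma, among them Enpp2 in oligodendrocytes, Aqp1 in red cells and some endothelia, and Dcn in fibroblasts along vessels. Other sources of the remaining members were not examined.

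The values are normalized counts, in which 1 read was worth 0.691 to 1.49 units by library, and the libraries held an estimated 10166231 to 24327896 reads (median 16343695). Once group means were subtracted, the main axis of variation (28.4% of the variance) separated 2 kinds of library in every group: 16 libraries of a first kind (4 Veh, 5 Dox, 7 Dox + ABT) and 10 of a second kind (6 Veh, 3 Dox, 1 Dox + ABT) with a larger share of ribosomal protein transcripts, 1.71% ± 0.236 (SD, n = 10) against 1.04% ± 0.152 (SD, n = 16). A further 2 pairs of libraries stood apart. Dox rats 1 and 2 held 11135 and 10209 normalized counts of Ptgds, where the other 24 rats held 1508 to 7526. Ptgds encodes a prostaglandin synthase and retinoid carrier made by leptomeninges, choroid plexus and oligodendrocytes. Dox rats 5 and 7 held the most haemoglobin RNA, described with Aqp1. Where leaving out either pair changed the call of a tested member, or ended that of another gene, both values are given below. The granule cell genes Prox1 and C1ql2 had means of 2610 and 6272 normalized counts, and the 8 granule cell genes summed to 10775 to 15974 per rat, so markers of DG granule cells were abundant in every library. The genes of the neighbouring CA fields varied more, as described further on.

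Ttr, Aqp1, Enpp2, Igf2, Dcn and Lum were detected in all 26 rats, and the spread between rats was much wider for some genes than for others. Ttr (ENSRNOG00000016275), the transthyretin gene and the most abundant transcript of choroid epithelium, ran from 5.46 to 310.1 normalized counts over the 26 rats, a 56.8-fold range. Its standard deviation between rats of the same group was 1.37 on the log2 scale, against a median of 0.36 for the 3177 genes whose mean lay within a factor of 2 of its own, and 99.2% of those genes varied less. Clic6, an intracellular chloride channel gene of secretory epithelia, varied by 1.53 and Aqp1, the water channel gene, by 1.45, against 0.85 and 0.53 for genes of like mean. Enpp2, Igf2, Dcn and Lum, in contrast, had standard deviations of 0.29, 0.43, 0.52 and 0.54, and between 47.0% (Lum) and 80.9% (Dcn) of the genes of like mean varied less.

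**Figure D1:**
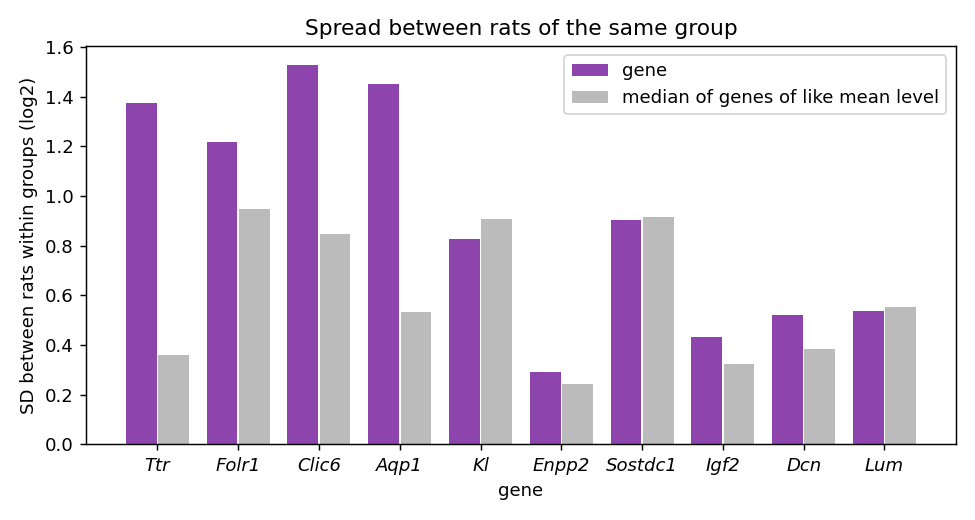
Standard deviation between rats of the same group (y axis, log2 units) for each of the 10 genes (purple bars) and the median of the genes whose mean lies within a factor of 2 (grey bars). Ttr, Clic6 and Aqp1 stand at 1.37, 1.53 and 1.45, well above genes of their level, and the meningeal genes and Enpp2 lie near theirs.

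Folr1, Kl and Sostdc1 were close to the limit of detection and did not pass the filter. Folr1, which encodes the folate receptor through which choroid epithelium moves folate, had a mean of 3.06 normalized counts and lay under 3 reads in 19 of 26 rats. Sostdc1, a secreted antagonist of BMP and Wnt signals, had a mean of 1.30 and lay under 3 reads in 22 rats, 11 of them at 0. Kl, which encodes Klotho, the co-receptor for FGF23, was just outside the filter at 4.86 and Clic6 just inside it at 6.97. A value of 0 allows up to 3 reads, which is 2.07 to 4.47 normalized counts by library and covers counting error alone. Kl had a lowest, median and highest value of 0.69, 2.68 and 6.44 in Veh, 0, 4.58 and 7.20 in Dox and 2.27, 5.86 and 21.7 in Dox + ABT. The 3 groups overlapped, and 4 of 8 Dox + ABT rats lay above the highest Veh rat (mean log2 level 2.87 against 1.87, two-sided exact permutation p = 0.0138, limma without the filter p = 0.0150, above the threshold of 0.01).

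**Figure D2:**
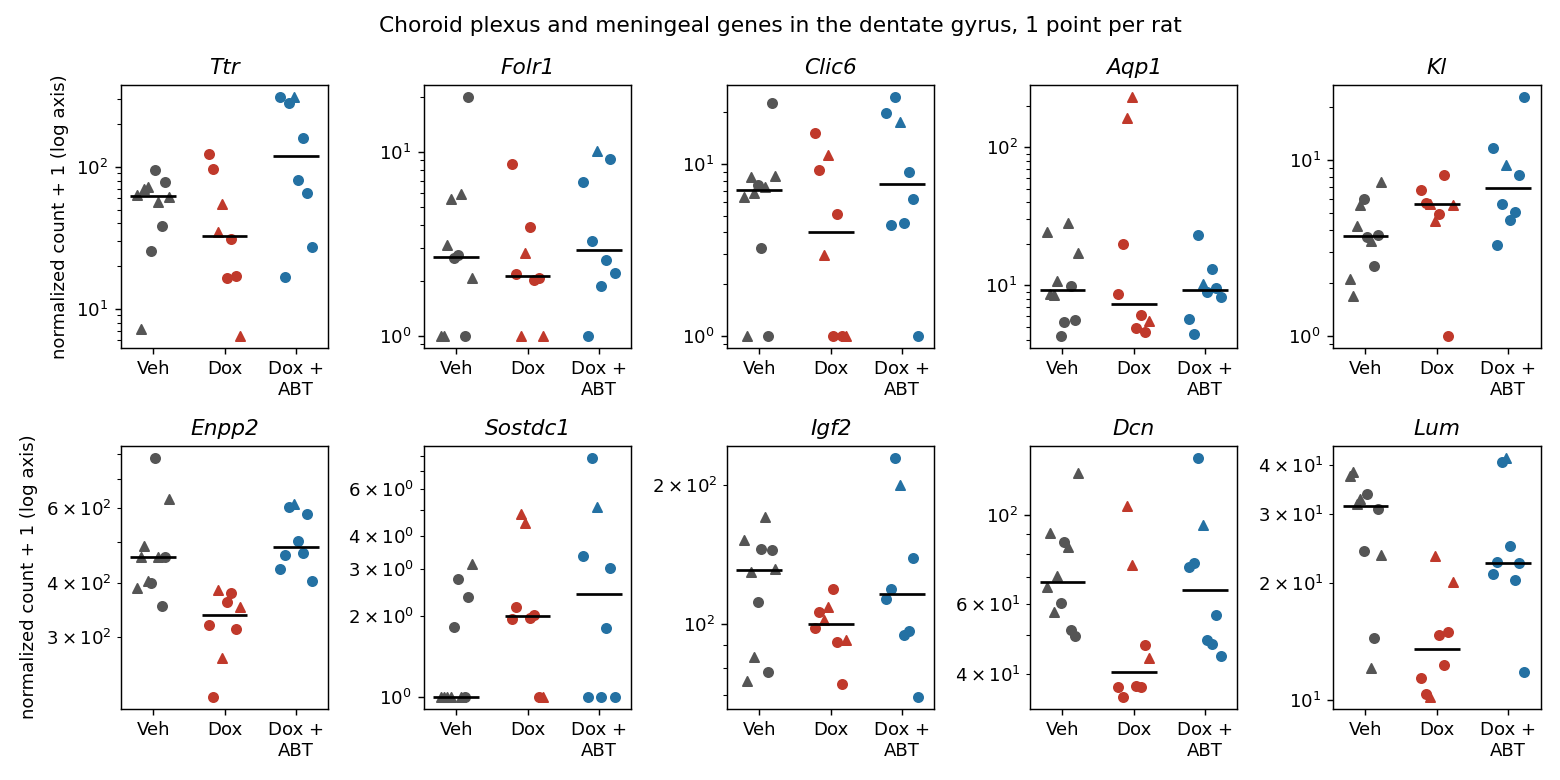
Normalized count + 1 (y axis, log scale) of each of the 10 genes, 1 point per rat, in Veh (n = 10), Dox (n = 8) and Dox + ABT (n = 8). Circles are libraries of the first kind, triangles of the second, and bars are group medians. Enpp2 and Lum sit lower in Dox, Ttr is highest in 4 Dox + ABT rats, and Aqp1 is far above all others in 2 Dox rats.

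Ttr and Clic6, the epithelial pair, rose and fell together across rats. In Veh, Ttr had a lowest value of 6.22, a median of 61.4 and a highest of 94.5 normalized counts. In Dox these were 5.46, 31.8 and 121.4, and in Dox + ABT 15.9, 119.2 and 310.1. The ranges overlapped widely, yet 4 of the 8 Dox + ABT rats (1, 3, 4 and 6, with 310.1, 281.3, 307.1 and 159.1) lay above every Veh and every Dox rat. Clic6 ran from 0 to 21.7 in Veh (median 6.07), from 0 to 14.2 in Dox (median 3.04) and from 0 to 23.6 in Dox + ABT (median 6.64), and it lay under 3 reads in 9 of 26 rats.

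Across the 26 rats, deviations of Clic6 from its group mean followed those of Ttr with Pearson's r = 0.80 and Spearman's rho = 0.82 (two-sided permutation p = 1e-05, the smallest that 100000 resamples can give, and p = 2.00e-05). The adjusted p was 0.000140 over the 28 relations between a member and another gene that were chosen for this test. For other pairs of members r was computed without a test, and these are not in the adjustment. Without Veh rat 2 and Dox rat 14, the rats farthest from the median of Ttr, r was 0.75 (permutation p = 0.000130), and it was 0.80 over 25 rats after the kind of library was also subtracted, which leaves out a rat that is alone of its kind in its group. When every tested gene was fitted on Ttr and group in limma, Clic6 was the 1 gene of 15594 with an adjusted p under 0.05 (0.00641% of genes, 743 with an unadjusted p under 0.05), with a slope of 0.89 log2 units per log2 unit of Ttr and an adjusted p of 0.0147. Clic6 as the regressor gave the same pair and no other gene, again 0.00641% of genes (685 unadjusted). No gene passed without Veh rat 2, Dox rat 1, Dox rat 14 or Dox + ABT rat 3 or 12, or without Dox rats 1 and 2 together, and 7 passed without Dox + ABT rat 2.

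Of the scarce choroid genes, 2 followed Ttr as well. Sostdc1 followed Ttr with r = 0.60 (rho = 0.60, permutation p = 0.00368 and 0.00428, adjusted p = 0.00858) and Folr1 with r = 0.56 (rho = 0.57, p = 0.00411 and 0.00336, adjusted p = 0.00858), both from few reads. For Kl and Enpp2 the relation did not pass 0.05: r was 0.25 for Kl (rho = 0.25, permutation p = 0.251 and 0.242) and 0.07 for Enpp2 (rho = 0.08, p = 0.714 and 0.688). For Aqp1, described further on, 2 Dox rats lie apart, so no pooled r with Ttr is given. In the other 24 rats, a subset chosen after the values were seen, r was 0.43 (rho = 0.42, permutation p = 0.0409 and 0.0461, not among the 28 relations and not adjusted). It was 0.44 without Veh rat 2 and Dox rat 14 (p = 0.0292) and 0.54 with kind subtracted (22 rats, p = 0.0202). Among the meningeal genes, Igf2, a growth factor gene of both tissues, followed Ttr with r = 0.52 (rho = 0.44, permutation p = 0.0111 and 0.0258, adjusted p = 0.0197), but r was 0.46 with p = 0.0599 without the 2 farthest rats. Dcn (r = 0.16, rho = 0.13, permutation p = 0.480 and 0.555) and Lum (r = 0.10, rho = 0.08, p = 0.644 and 0.706) showed no relation that passed 0.05.

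Outside the list, the 10 genes with the highest r with Ttr among 13661 genes (those averaging 20 or more) were Wipf3 (0.68), Dclk3 (0.68), Uri1 (0.63), Usp53 (0.63), Fkbp9 (0.62), AABR07039210.1 (0.62), LOC108351137 (0.62), Rcc1 (0.62), Mtmr2 (0.61) and Ifitm3 (0.61). These are the extremes of many genes, their slopes had adjusted p of 0.877 or above, and Wipf3, at a mean of 8037 normalized counts, and Dclk3 are neuronal genes. Of 10 other tested genes of choroid epithelium, none had a slope with an adjusted p under 0.05 on Ttr, and Slc4a5, a bicarbonate transporter gene of its apical membrane, had a slope of 0.11 (p = 0.343).

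**Figure D3:**
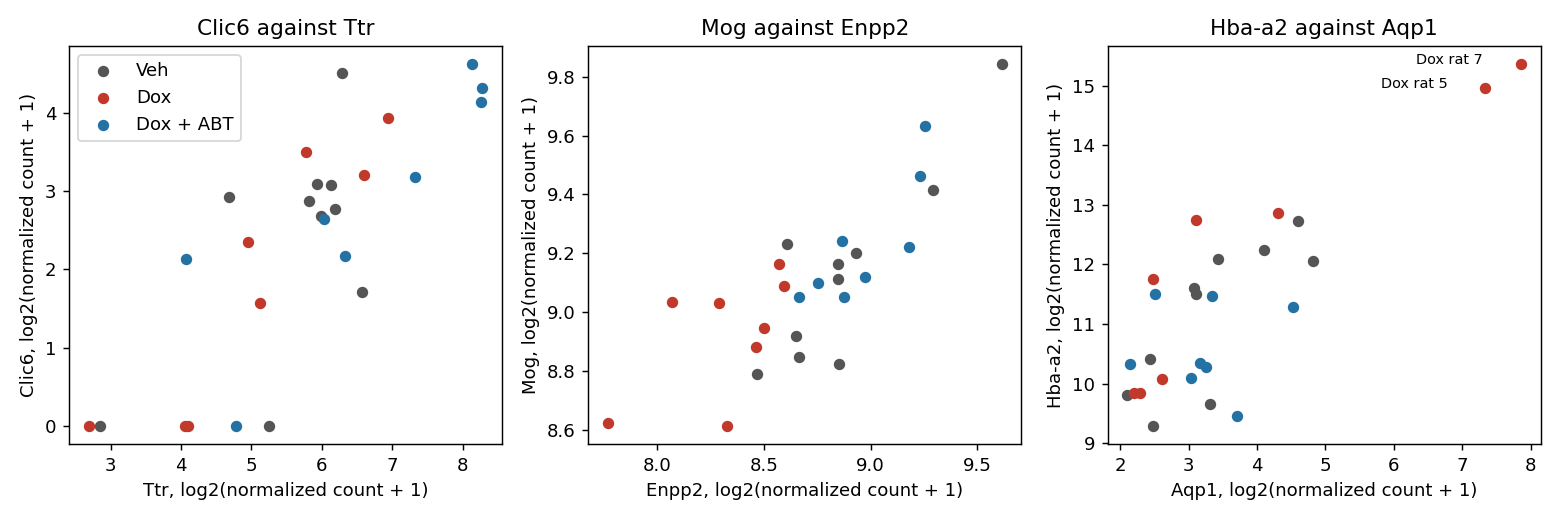
Each point is 1 rat, on log2(normalized count + 1) axes: Clic6 against Ttr (left), Mog against Enpp2 (middle) and Hba-a2 against Aqp1 (right), in Veh, Dox and Dox + ABT. The first 2 panels show graded relations in all groups, while in the last panel Dox rats 5 and 7 lie apart from the other 24 rats.

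Aqp1 was set by 2 rats. It ran from 3.30 to 27.1 normalized counts in Veh (median 8.27), from 3.61 to 230.4 in Dox (median 6.34) and from 3.40 to 22.1 in Dox + ABT (median 8.26). Dox rat 7 held 230.4 and Dox rat 5 held 160.6, while the other 6 Dox rats overlapped fully with both other groups. These 2 rats also had the highest values of all 5 haemoglobin and red-cell genes measured: the alpha-globin gene Hba-a2 stood at 42089 and 31916 normalized counts against 624 to 7476 in the other 24 rats, and the beta-globin gene Hbb at 47294 and 33551 against 899 to 12164. Aqp1 is the Colton antigen of red cells, and both its transcript and those of globin are carried by young red cells in blood.

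No r over all rats is given for Aqp1, since these 2 rats form a cluster of their own. In the other 24 rats, a subset chosen after the values were seen, Aqp1 followed the 5 red-cell genes with r from 0.58 (Hbb-bs, rho = 0.57, permutation p = 0.00429 and 0.00591) to 0.66 (Alas2, the haem synthesis enzyme gene of erythroid cells). For Alas2, rho was 0.68 (permutation p = 0.000720 for r and 0.000640 for rho, adjusted p = 0.00288), and r was 0.60 without Veh rats 1 and 9. With the kind of library subtracted, over 22 rats, r ran from 0.42 (Hbb-bs, permutation p = 0.0775) to 0.53 (Alas2, p = 0.0180), and the relation with Hbb-bs no longer passed 0.05. In the fit of all genes on Aqp1 over 26 rats, 2049 of 15594 genes (13.1%) had an adjusted p under 0.05, the 5 red-cell genes among them. With kind as a covariate 52 genes passed, and the red-cell genes kept adjusted p of 0.0189 to 0.0462. Both counts rested on Dox rats 5 and 7: without them 0 genes passed in limma (1522 had an unadjusted p under 0.05, and 797 with kind as a covariate), and the red-cell genes had slopes of 0.79 to 0.91 log2 units per log2 unit of Aqp1 with unadjusted p of 0.000182 to 0.00140 and an adjusted p of 0.476. Aqp1 differed by 0.68 ± 0.64 (log2 fold change ± SE) between Dox and Veh (p = 0.296) and by -0.51 without Dox rats 5 and 7 (p = 0.228), by 0.32 within the first kind of library (p = 0.536) and 2.04 within the second, which holds both of these rats (p = 0.0493), by -0.15 with Hba-a2 held constant (p = 0.707) and by -0.31 under weights for libraries (p = 0.537).

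The 250 bases upstream of the Aqp1 and Lum starts are printed because the results turn on these 2 genes (a water channel of epithelium and red cells, and a fibroblast gene lower in Dox) and they were among the 5 members (6 starts) matched by symbol in RefSeq's table for GRCr8. Capitals mark TATAAA, searched on both strands.
Aqp1, chr4:85812534-85812783, plus strand: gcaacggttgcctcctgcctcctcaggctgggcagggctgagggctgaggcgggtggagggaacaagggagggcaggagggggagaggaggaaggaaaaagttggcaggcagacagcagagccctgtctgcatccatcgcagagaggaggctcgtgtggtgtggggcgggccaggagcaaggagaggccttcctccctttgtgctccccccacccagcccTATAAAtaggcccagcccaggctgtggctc
Lum, chr7:34245456-34245705, plus strand: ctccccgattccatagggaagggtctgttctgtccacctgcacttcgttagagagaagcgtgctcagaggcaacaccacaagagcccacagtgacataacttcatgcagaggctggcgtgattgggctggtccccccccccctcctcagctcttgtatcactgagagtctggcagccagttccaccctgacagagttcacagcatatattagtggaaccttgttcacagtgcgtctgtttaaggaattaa
TATAAA lay in 1 of the 6 member windows of 300 bases (Aqp1), against 14.2% of all 33469 windows of that length. TAATCC, the core bound by OTX-class homeodomain proteins, lay in 0 of the 6, against 7.17% of all windows. Both searches covered both strands, and their matches are a description of these letters alone.

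Enpp2 was lower in Dox than in either other group. It encodes autotaxin, the secreted enzyme that makes lysophosphatidic acid, and it is made by choroid epithelium and by oligodendrocytes. Its lowest, median and highest values were 353, 460 and 783 normalized counts in Veh, 217, 336 and 386 in Dox and 405, 485 and 609 in Dox + ABT. All 8 Dox rats lay below all 8 Dox + ABT rats and below the median of Veh, and 5 of them lay below every Veh rat. The log2 fold change was -0.55 ± 0.13 (SE) between Dox and Veh (limma p = 0.000283, adjusted p = 0.114, exact permutation p = 0.000480) and -0.65 ± 0.14 between Dox and Dox + ABT (p = 7.58e-05, adjusted p = 0.0675, exact permutation p = 0.000155, the smallest this design allows). Dox + ABT and Veh differed by 0.10 ± 0.13 (p = 0.469). Within the first kind of library Dox differed from Veh by -0.60 (p = 0.00589), and within the second by -0.49 (p = 0.00975). With the replicate number as a block, neither the difference from Veh nor that from Dox + ABT passed 0.01, as described in the closing section.

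Across rats Enpp2 followed myelin genes, while its r with Ttr was 0.07. Its deviations followed those of Mog, a protein gene of the outer surface of central myelin, with r = 0.79 and rho = 0.65 over 26 rats (permutation p = 1e-05, the smallest possible, and 0.000700, adjusted p = 0.000140). Without Veh rat 6 and Dox rat 2, r was 0.65, and with the kind of library subtracted it was 0.79 (25 rats). Mobp, another myelin protein gene, had r = 0.78 (rho = 0.68, permutation p = 2.00e-05 and 0.000290). The lowest of the 8 oligodendrocyte genes reported were Mag (r = 0.45, rho = 0.41, permutation p = 0.0325 and 0.0495) and Aspa (r = 0.15, rho = 0.34, p = 0.491 and 0.0956). In the fit of all genes on Enpp2, 336 of 15594 genes (2.15%) had an adjusted p under 0.05, and 5 of the 8 oligodendrocyte genes were among them (Mobp, Mog, Mbp, Cnp and Ermn). With kind as a covariate it was 560 genes. Without Dox rats 1 and 2 it was 391, with all 8 oligodendrocyte genes among them (Aspa with a slope of 0.76 and an adjusted p of 0.0360), and without Dox rats 5 and 7 it was 379, with 5 of the 8. Of the 8, 1 passed p under 0.01 between Dox and Veh (Cnp, a myelin enzyme gene, -0.39 ± 0.13, limma p = 0.00721, but -0.32 without either pair, p = 0.0375 and 0.0362), where 2.87% of all genes did, and 1 between Dox and Dox + ABT (Opalin, a gene of an oligodendrocyte membrane protein, -0.61 ± 0.20, p = 0.00445, but -0.54 and p = 0.0157 without Dox rats 5 and 7), where 4.03% did. Opalin differed by 0.02 between Dox and Veh (p = 0.918) and was higher in Dox + ABT than in Veh (0.63 ± 0.19, p = 0.00224, but 0.38 and p = 0.0316 once kind was a covariate), where 7.84% of all genes passed. With each of the 5 genes associated with Enpp2 held constant in turn, the difference in Enpp2 between Dox and Veh ran from -0.28 (Cnp, p = 0.0220, no longer under 0.01) to -0.52 (Mobp, p = 6.23e-06), and with Mog held constant it was -0.37 (p = 0.000742). Between Dox and Dox + ABT it ran from -0.37 (Mog, p = 0.00162) to -0.58 (Mbp, p = 9.20e-06).

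Enpp2 has 2 transcript rows in the data, and the difference between them was not tested. The first row had medians of 246, 198 and 280 normalized counts in Veh, Dox and Dox + ABT, and differed by -0.38 ± 0.20 between Dox and Veh (p = 0.0684). The second had medians of 219, 138 and 235 and differed by -0.94 ± 0.27 (p = 0.00154). Without Dox rats 1 and 2 the second row differed by -0.47 ± 0.17 (p = 0.0116), which no longer passed 0.01, and the first by -0.43 ± 0.22 (p = 0.0563). In this second row Dox rats 1 and 2 held 28.5 and 56.1, and the other 24 rats 119 to 296, whereas in the first row their values of 291 and 161 lay within the range of the rest (122 to 502). How reads were shared between rows is an estimate of the authors' counting. Without Dox rats 1 and 2 the summed gene differed by -0.46 between Dox and Veh (p = 0.00247) and by -0.56 between Dox and Dox + ABT (p = 0.000630).

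Lum, a keratan sulfate proteoglycan of collagen fibrils made by meningeal fibroblasts, was also lower in Dox. Its lowest, median and highest values were 11.1, 30.3 and 37.3 normalized counts in Veh, 9.22, 12.5 and 22.3 in Dox and 10.8, 21.5 and 40.7 in Dox + ABT. All 8 Dox rats lay below the Veh median, with 3 below every Veh rat, and the ranges overlapped. The log2 fold change between Dox and Veh was -0.90 ± 0.26 (p = 0.00151, adjusted p = 0.195, exact permutation p = 0.00384). It was -0.96 within the first kind of library (p = 0.00805) and -0.70 within the second (p = 0.107), and -0.77 without Dox rats 1 and 2 (p = 0.0102). Against Dox + ABT it was -0.77 ± 0.27 (p = 0.00818, adjusted p = 0.239, exact permutation p = 0.0115). This second difference passed the threshold narrowly: it no longer did without any 1 of Dox rats 1, 2, 5, 9, 10 and 13 or Dox + ABT rats 2, 3, 4, 5 and 11, with p up to 0.0233, and without Dox rats 1 and 2 it was -0.64 (p = 0.0369).

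Dcn, the decorin gene, encodes a small proteoglycan of the same family and was lower in Dox by less. Its values ran from 48.9 to 126.6 normalized counts in Veh (median 67.2), from 34.0 to 104.5 in Dox (median 39.5) and from 43.4 to 138.8 in Dox + ABT (median 64.1). Of the 8 Dox rats, 6 lay below every Veh rat, and Dox rats 5 and 7, the rats with the most haemoglobin RNA, held 104.5 and 74.0. The log2 fold change between Dox and Veh was -0.57 ± 0.24 (p = 0.0233, exact permutation p = 0.0306) and did not pass, nor did that between Dox and Dox + ABT (-0.49 ± 0.25, p = 0.0609, exact permutation p = 0.116). Without Dox rats 5 and 7 the values were -0.86 (p = 0.000556) and -0.78 (p = 0.00214), and without Dox rat 5 alone -0.73 (p = 0.00279) and -0.65 (p = 0.00966). Dcn was 0.50 higher on the log2 scale in the second kind of library, and the fit on Dcn gave 2601 genes (16.7%) with an adjusted p under 0.05, against 125 with the kind as a covariate and 83 without Dox rats 5 and 7. With both changes 0 genes passed in limma (1676 had an unadjusted p under 0.05).

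Igf2 ran from 74.0 to 169.9 normalized counts in Veh (median 129.6), from 73.0 to 118.3 in Dox (median 98.7) and from 68.4 to 228.7 in Dox + ABT (median 115.0). All 8 Dox rats lay below the Veh median but within the Veh range except for 1, and the differences of -0.27 ± 0.19 from Veh (p = 0.181) and -0.34 ± 0.21 from Dox + ABT (p = 0.113) did not pass. The 3 stromal genes had modest relations to each other: r was 0.45 between Dcn and Igf2 (rho = 0.39, permutation p = 0.0242 and 0.0635, adjusted p = 0.0377), 0.37 between Lum and Igf2 (rho = 0.32, p = 0.0966 and 0.127) and 0.34 between Dcn and Lum (rho = 0.42, p = 0.0987 and 0.0430). Without the 2 farthest rats the first fell to 0.29. Fits of all genes on Igf2 and on Lum left 0 genes (0%) with an adjusted p under 0.05 in limma, where 1062 and 1363 had an unadjusted p under 0.05.

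**Figure D4:**
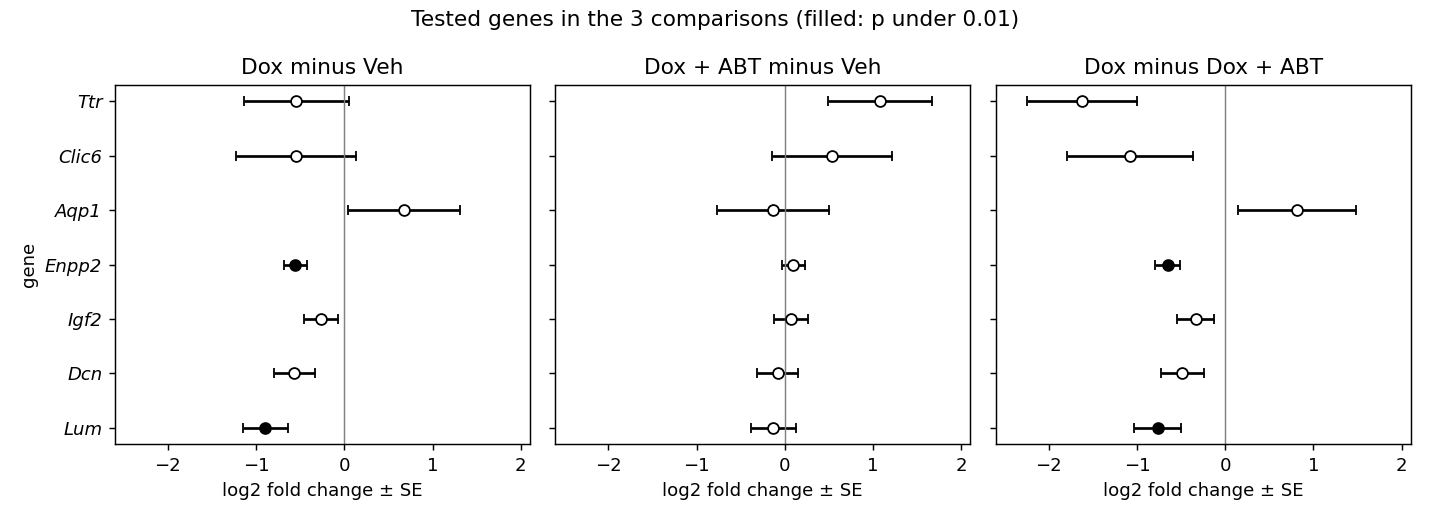
Log2 fold change ± SE (x axis) of the 7 tested genes in Dox minus Veh, Dox + ABT minus Veh and Dox minus Dox + ABT, from 1 limma fit of 26 rats; filled points have p under 0.01. Enpp2 and Lum are filled and lower in Dox in the left and right panels, and no gene is filled in the second.

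Counted together, 2 of the 7 tested members (Enpp2 and Lum) had p under 0.01 between Dox and Veh, both lower in Dox, where 448 of all 15595 genes did (2.87%), 289 of them lower (1.85%). Without Dox rats 1 and 2, 181 genes and 1 member (Enpp2) passed, and the count of genes ran from 266 (without Dox rat 1) to 707 (without Veh rat 11) when 1 rat was left out. The median change was -0.54 over the 4 tested choroid genes and -0.57 over the 3 meningeal genes, against 0.005 over all tested genes. Between Dox and Dox + ABT the same 2 of 7 passed, both lower in Dox, where 4.03% of all genes did and 1.71% were lower. The 2 comparisons share the Dox rats, so the second is not a repeat of the first. Between Dox + ABT and Veh, 0 of the 7 members passed (0 of 7 with an unadjusted p under 0.05), where 7.84% of all genes did, a count of 1222 that ran from 695 to 2130 when 1 rat was left out and fell to 214 with kind as a covariate. Ttr did not pass in any comparison: its differences were -0.54 ± 0.59 between Dox and Veh (p = 0.367, exact permutation p = 0.371), 1.08 ± 0.59 between Dox + ABT and Veh (p = 0.0791, exact permutation p = 0.114) and -1.63 ± 0.63 between Dox and Dox + ABT (p = 0.0147, exact permutation p = 0.0528). The last passed the threshold without Veh rat 2, Dox rat 1, Dox rat 2, Dox + ABT rat 2 or Dox + ABT rat 12, with p down to 0.00257, was -2.21 without both Dox rats 1 and 2 (p = 0.00181), and was -1.10 within the first kind of library (p = 0.123).

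Wider lists of genes of the same tissues were counted in the same way, beside shares of all genes passing of 2.87% (Dox against Veh), 4.03% (Dox against Dox + ABT) and 7.84% (Dox + ABT against Veh). At these shares a count of 0 in a short list is not a result about its genes. Of 20 other choroid epithelium genes, 18 were listed and 10 were tested. None passed between Dox and Veh, and their median change was -0.09. Msx1, a homeobox gene, had the smallest p (-0.33, p = 0.0288), followed by Slc2a12 (0.28, p = 0.0775) and Slc4a5 (-0.56, p = 0.126). Between Dox and Dox + ABT, Slc4a5 was lower in Dox (-1.18 ± 0.37, p = 0.00380), and between Dox + ABT and Veh the monoamine transporter gene Slc29a4 was lower in Dox + ABT (-0.55 ± 0.14, p = 0.000615), and it was -0.37 once kind was a covariate (p = 0.00827). The most abundant of the list, Slc29a4, Calml4 and Slc2a12, had means of 587, 198 and 140 normalized counts. Their slopes on Ttr were 0.024, 0.0033 and 0.054 (limma p = 0.608, 0.949 and 0.283), and whether their RNA came from choroid epithelium was not tested. Of the 18 listed genes, 8 stayed under the filter. None of 6 tested ependymal genes passed in any comparison, with a median change of -0.13 between Dox and Veh; their lead by p was Tekt1 (-0.39, p = 0.0997) and by level Rarres2 (mean 95.7).

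Of 22 other genes of meningeal and perivascular fibroblasts, 18 were tested, and 3 were lower in Dox than in Veh at p under 0.01 and none higher, where 1.85% of all genes were lower. Of these 3, 2 still passed without Dox rats 1 and 2. Col3a1, the type III collagen gene, had a lowest, median and highest value of 11.9, 22.5 and 61.1 normalized counts in Veh, 3.79, 8.34 and 18.9 in Dox and 16.9, 28.2 and 75.5 in Dox + ABT. It differed by -1.40 ± 0.29 between Dox and Veh (p = 4.21e-05, adjusted p = 0.0547) and by -1.62 ± 0.31 between Dox and Dox + ABT (p = 1.17e-05, adjusted p = 0.0609). Lum followed Col3a1 across rats with r = 0.60 (rho = 0.56, permutation p = 0.00234 and 0.00457, adjusted p = 0.00596), and r was 0.60 without the 2 farthest rats and 0.61 with the kind of library subtracted (25 rats). Aldh1a2, the retinaldehyde dehydrogenase gene of leptomeninges, was lower in Dox by 0.82 against Veh (-0.82 ± 0.25, p = 0.00323) and by 1.08 against Dox + ABT (-1.08 ± 0.27, p = 0.000394). Without Dox rats 1 and 2 the first was -0.65 (p = 0.0242) and no longer passed, and the second was -0.91 (p = 0.00364). The r of Lum with Aldh1a2 was 0.09 (rho = 0.13, permutation p = 0.685 and 0.529). The dicarboxylate transporter gene Slc13a3 was lower in Dox than in Veh (-0.74 ± 0.18, p = 0.000297), and the connexin gene Gjb2 was lower in Dox than in Dox + ABT (-0.47 ± 0.14, p = 0.00241). Over the whole list the median change was -0.02 between Dox and Veh, with 9 genes on each side of 0. Between Dox and Dox + ABT it was -0.19, with 15 of 18 genes lower in Dox and 3 of them past the threshold (1.71% of all genes were), and between Dox + ABT and Veh it was 0.24, with 11 of 18 higher and 0 past it. Abundant genes of the list such as Bgn (-0.32, p = 0.110) and Ptgds (0.18, p = 0.607) did not pass between Dox and Veh. The Ptgds value includes the high Dox rats 1 and 2. The other Dox rats held 1508 to 2171 normalized counts, below the Veh median of 2258.

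Other neighbours of the DG bear on the same dissections. The 7 genes of the CA fields, led by Wfs1 and Mpped1, summed to 3221 to 24393 normalized counts per rat, and 0 of 7 passed in any comparison, a count too small to set apart from the 2.87% to 7.84% of all genes that did. Wfs1 had a slope of 0.45 on Ttr (p = 0.00348, adjusted p = 0.926). Among 7 thalamic genes, 0 passed between Dox and Veh, where 5 were lower in Dox and 2 higher. Slc17a6 had the smallest p there (-0.79 ± 0.35, limma p = 0.0306), and differed by -0.94 ± 0.37 between Dox and Dox + ABT (p = 0.0162). Synpo2 was lower in Dox + ABT than in Veh (-0.51 ± 0.15, p = 0.00208), which did not pass once kind was a covariate (-0.42, p = 0.0151). Of the granule cell genes, C1ql2 was lower in Dox + ABT than in Veh (-0.46 ± 0.12, p = 0.000697), or by -0.33 with that covariate (p = 0.00812). Of 6 tested endothelial genes, Slco1a4, an organic anion transporter gene of the blood-brain barrier, was lower in Dox than in Veh (-0.96 ± 0.27, p = 0.00110), and Dox rats 1 and 2 had its lowest values, 81.6 and 64.5 normalized counts. Without these 2 rats the difference was -0.47 ± 0.17 (p = 0.0103) and did not pass. Against Dox + ABT it was -0.91 ± 0.28 (p = 0.00289), and -0.41 without these 2 rats (p = 0.0266). The glucose transporter gene Slc2a1 went the other way, higher in Dox than in Dox + ABT (0.47 ± 0.15, p = 0.00295). Dox rats 1 and 2 had its highest values, 2300 and 2518, and without them it was 0.33 (p = 0.0302). Against Veh it differed by 0.37 ± 0.14 (p = 0.0127). The part of these tissues in the differences of Enpp2 and Lum was not tested beyond the values above.

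When the level of Ttr was held constant in the fit of all genes, the number with p under 0.01 went from 448 to 515 between Dox and Veh, with 406 shared (90.6% of the first and 78.8% of the second). Between Dox and Dox + ABT it went from 629 to 525, with 354 shared (56.3% and 67.4%). Between Dox + ABT and Veh it went from 1222 to 728, with 654 shared (53.5% and 89.8%). In this last comparison the kind of library as a covariate left 214 genes. Holding Ttr constant changed the difference of Enpp2 between Dox and Veh to -0.55 (p = 0.000493) and that of Lum to -0.88 (p = 0.00249), so both kept their side of the threshold there. Against Dox + ABT, Enpp2 in Dox was then -0.63 (p = 0.000536), while Lum was -0.70 (p = 0.0289) and no longer passed.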

How the data were processed

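RNA of the DG from 26 rats was measured by poly(A) RNA-seq, with 1 library per rat. Per the submitters' processing notes and methods, reads were aligned to rn6 with STAR 2.5.3a in Partek Flow. What was deposited is a normalized signal, for which the authors scaled the counts of 24012 transcript rows by Median Ratio factors; a second table of sample attributes was not used. Of low values, 75.5% to 78.8% by library were whole reads within 0.02, so raw reads could not be rebuilt and count models were left out. Reads were estimated from the smallest step between low values.

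Rows were summed by Ensembl gene ID. Genes averaging 5 or more (15595) were tested on log2(value + 1), which understates the change of low genes, with limma 3.58.1 in R 4.3.3 (variance trend, 26 rats in 1 fit of 3 groups, two-sided, p under 0.01 as in the study, Benjamini-Hochberg adjustment over all tested genes). Slopes on a member added that member's log2 level, at an adjusted p under 0.05. Single genes were also compared by two-sided exact permutation tests, and correlations used deviations from group means with 100000 resamples within groups (seed 1). Replicate numbers name different rats.

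The members and the 9 other gene lists were chosen with earlier results of these data known. Named genes are all members, the 10 genes most correlated with Ttr, and genes of each other list. Of those lists, the 3 most abundant genes and the 3 with the smallest p between Dox and Veh are named, as far as a result turned on them. Mog, Mag, Opalin, Gjb2, Alas2 and the rows of Enpp2 were added for their values. A gene left out of the lists is not reported here. Fits with Mog, Mobp, Mbp, Cnp, Ermn, Hba-a2 or Hbb held constant, without 2 Dox rats or within a kind of library, and the relations other than those with Ttr, were chosen after seeing the data. Alternatives are listed in the closing section. Promoters came from RefSeq on GRCr8, which is not the build of the values. Figures were drawn with matplotlib 3.10.9.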

Additional observations from a re-analysis of the deposited data

Results flagged for a closer look

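A single rat lay far from the rest of its group in 2 of the 30 sets of values examined (10 genes in 3 groups). The rule was the gap to the nearest rat over the whole range on the log2 scale. Its limits are nominally set to mark about 1 in 20 sets by chance, a rate that was not checked for these values. Ttr was 6.22 normalized counts in Veh rat 2, where the Veh median was 61.4 (gap 0.49 of the range), and Clic6 was at 0 in the same rat. Kl was 0 in Dox rat 13, where the Dox median was 4.58 (gap 0.71 of the range, with 0 read as exact). A 0 in that library allows up to 3.22 normalized counts, just under the 3.49 (5 reads) of the next Dox rat. At so few reads, how far the rat lies from the others cannot be told.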

How the results depend on the processing

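Of 1135 values under an alternative, 31 changed sign (none of them passed the threshold in the main fit). The difference of Enpp2 between Dox and Veh stayed at p under 0.01 without any 1 rat, as did that of Lum. Pseudocounts of 0.5 and 5, no filter and fits of 2 groups alone changed no call of a member. With a mean of at least 20 required, 0 genes were associated with Ttr, since Clic6 was then not tested. Between Dox and Dox + ABT, 1 member passed under quantile normalization and 1 with Ttr as a covariate. Weights for libraries gave 3150, 5297 and 1612 genes of all tested (Dox against Veh, Dox + ABT against Veh, Dox against Dox + ABT) and turned Aqp1 to -0.31 (Dox against Veh) and -0.24 (Dox against Dox + ABT).

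The replicate block changed the count of genes to 765 between Dox and Veh and to 403 between Dox and Dox + ABT, left 1 member in the first (Lum; Enpp2 -0.38, p = 0.0513) and 0 in the second, left 0 genes associated with Ttr, and turned Ttr to 0.51 and Clic6 to 0.34 (Dox against Veh) and Clic6 to 0.11 (Dox against Dox + ABT); same-numbered rats share only a number, since their deviations did not correlate (16 pairs, r from -0.171 to 0.298, median 0.000349).

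Between Dox + ABT and Veh, the kind of library as a covariate left 214 genes and turned Dcn to 0.20, Lum to 0.051 and Aqp1 to 0.68, and Ttr as a covariate left 728 genes and turned Igf2 to -0.11 and Clic6 to -0.43, with Clic6 at 0.37 between Dox and Dox + ABT. The first kind of library alone gave 742, 172 and 1281 genes in the order above, Dcn at 0.089, Aqp1 at 0.61 and Igf2 at -0.013 between Dox + ABT and Veh, and Aqp1 at -0.29 between Dox and Dox + ABT; the second kind alone left 1 member between Dox and Veh. Without Dox rats 1 and 2, 181 genes, 1 member (Enpp2) and 0 genes associated with Ttr were left between Dox and Veh. Without Dox rats 5 and 7, 1131 genes passed and Aqp1 was -0.51 and -0.38 (Dox against Veh and against Dox + ABT). With Hba-a2 held constant, Aqp1 was -0.15, 0.30 and -0.45 in the 3 comparisons, and with Hbb 0.22 (Dox + ABT against Veh) and -0.18 (Dox against Dox + ABT).

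Leaving out 1 rat at a time, the genes passing ran from 266 (without Dox rat 1) to 707 (without Veh rat 11) between Dox and Veh, with over 1.5 times fewer also without Dox rat 2; from 695 (without Dox + ABT rat 5) to 2130 (without Veh rat 11) between Dox + ABT and Veh, with moves over 1.5 times also for Veh rats 1, 2, 9 and 10 and Dox + ABT rats 3 and 6; and from 419 (without Dox + ABT rat 5) to 787 between Dox and Dox + ABT. Genes associated with Ttr ran from 0 to 7 and members passing between Dox and Dox + ABT from 1 to 3. Between Dox + ABT and Veh, Aqp1 ran from -0.32 to 0.030, Dcn from -0.23 to 0.013, Igf2 from -0.059 to 0.19 and Lum from -0.26 to 0.014. The causes of these changes were not tested. Clic6, Folr1, Kl and Sostdc1 rest on few reads, so their levels are the least precise.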
